A study of Mus musculus with 4 samples.

Results

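Wnt2, Wnt2b, Wnt5a, Wnt5b, Wnt9a, Wnt10b and Wnt11 are the Wnt ligand genes described here, Wnt4, the ligand named in the title of the study, being left aside. They were taken by gene symbol and are 7 of the 32285 genes of the deposited count matrix, which holds 19 mouse Wnt genes in all. These 7 are only part of the Wnt family and were chosen with earlier results of these data known. The data are single-cell RNA counts from mouse alveolospheres, small organoids made of PDGFRα+ lung fibroblasts and alveolar type 2 (AT2) cells, the progenitors that secrete surfactant, grown together in MTEC/Plus medium. AT2 cells were selected with LysoTracker, a dye of acidic organelles. In the YAP/TAZ knockdown (KD) group the AT2 cells were wildtype and YAP and TAZ were knocked down specifically in the PDGFRa fibroblasts; in the control group the label gives a wildtype genotype. Both groups carried 3 µg/ml doxycycline in DMSO from day 7 of culture to collection on day 14, so the inducing drug was common to them. Each group had 2 libraries, in 1 batch. The labels call them biological replicates without saying whether each had its own animals or culture. The p-values therefore measure how far these libraries vary, part of which may be technical. The labels do not give the driver of the knockdown, the age of the mice or how many were pooled.

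Wnt proteins are secreted, lipid-modified signals that act over short distances. Some raise β-catenin in the receiving cell through Frizzled and LRP receptors, which is called canonical signalling, and others act through Ror or Ryk receptors on cell shape and movement, which is called non-canonical. In the mouse lung, Wnt2 and Wnt2b from the mesenchyme specify the lung endoderm, Wnt5a shapes the distal airways and the alveoli, and Wnt signals from fibroblasts help to keep AT2 cells as stem cells. YAP and TAZ, encoded by Yap1 and Wwtr1, are paralogous co-activators that bind DNA through TEAD factors.

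The promoters of Wnt2 and Wnt11 are printed because these genes head the results below and because a motif match separated the 2 windows. Of the 7 genes, 6 matched the RefSeq promoter table (build GRCm38.p6); Wnt5a was not matched. Capitals mark ATCAAAG, the core letters bound by TCF/LEF factors, the DNA-binding partners of β-catenin. Both sequences run 5′ to 3′ on the strand of the gene and end at the base before its start.
Wnt2 (chr6:18030586-18030695, minus strand, 110 bases): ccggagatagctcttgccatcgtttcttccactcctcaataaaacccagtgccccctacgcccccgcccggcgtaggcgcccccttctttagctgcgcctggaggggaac
Wnt11 (chr7:98834862-98835111, plus strand, 250 bases): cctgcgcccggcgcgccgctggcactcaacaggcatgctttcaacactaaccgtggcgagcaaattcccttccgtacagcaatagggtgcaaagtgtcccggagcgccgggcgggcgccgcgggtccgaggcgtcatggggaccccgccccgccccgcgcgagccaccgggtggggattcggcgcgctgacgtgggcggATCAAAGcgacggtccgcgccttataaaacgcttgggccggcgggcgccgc
The Wnt11 match lay 51 to 45 bases before the start, on the strand of the gene. Among the 6 genes, the only other match to ATCAAAG or its reverse complement CTTTGAT was at an alternative start of Wnt5b, 71 to 65 bases before it and on the opposite strand. The TEAD motif, searched as GGAATG and its reverse complement CATTCC, had no match within the 250 bases before any start of these 6 genes. Of 32851 RefSeq promoters cut to the same 250 bases, 3.2% held the TCF/LEF letters and 12.6% the TEAD letters. A match says only that these letters are present, and no match says nothing of binding elsewhere. In the printed Wnt2 window, the 140 bases that lie inside an annotated transcript were left out.

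Per GENCODE M21 on GRCm38, Wnt2 (ENSMUSG00000010797) lies on chromosome 6 from 17988940 to 18030585 on the minus strand and overlaps no other annotated gene. Wnt11 (ENSMUSG00000015957) lies on chromosome 7 from 98835112 to 98855195 on the plus strand and overlaps the pseudogene Gm8398 on the other strand. Wnt5a (ENSMUSG00000021994) lies on chromosome 14 from 28504750 to 28527448 on the plus strand, with the antisense gene Gm2670. Wnt5b (ENSMUSG00000030170, chromosome 6, 119432531 to 119544347, minus strand) spans Fbxl14 on the opposite strand, and Wnt2b (ENSMUSG00000027840, chromosome 3, 104945272 to 104961921, minus strand) holds the sense-intronic Gm43846. Wnt9a (ENSMUSG00000000126) is on chromosome 11 from 59306928 to 59333552 on the plus strand, and Wnt10b (ENSMUSG00000022996) on chromosome 15 from 98770712 to 98778150 on the minus strand. The use of strand in counting was not given in the sources used here, and reads of the overlapping genes could have entered the counts of Wnt2b, Wnt5a, Wnt5b and Wnt11.

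The KD libraries held 10545 and 6508 cells with 63758826 and 44284602 unique molecular identifiers (UMIs, counts of captured RNA molecules), against 15000 and 13883 cells with 71523447 and 70525226 UMIs in the control libraries. Of all cells, 2157 carried a barcode that also occurs in another library. Levels are UMI sums per library over a compartment or class, given as CPM, counts scaled to the library total after TMM normalisation, which are not corrected for gene length and so are compared between samples and not between genes. Fewer cells of a kind and less RNA per cell cannot be told apart in such sums over a compartment. The fibroblast compartment joined 11 deposited classes (7472 and 5123 KD cells, 12041 and 11480 control cells), and the epithelial compartment joined AT2, cycling AT2 and transitional cells (2589 and 1274 KD cells, 2233 and 1749 control cells). Clusters 19 and 23, deposited as AT2, were left out of both because their fibroblast markers reached 62.9% and 55.8% of the level in fibroblasts. Of the targeted genes, Yap1 fell in KD fibroblasts and Wwtr1 did not pass the test. Yap1 was at 40.8 and 36.3 CPM in KD libraries and 61.5 and 65.0 CPM in control libraries (log2 fold change -0.71 ± 0.11 SE, adjusted p = 0.00857). Wwtr1 was at 193 and 171 CPM in KD libraries and 240 and 231 CPM in control libraries (log2 fold change -0.36 ± 0.13 SE, adjusted p = 0.115). In the untargeted epithelium Wwtr1 was at 243 and 208 CPM in KD and 313 and 271 CPM in control. Its log2 fold change there was -0.37 ± 0.19 (SE, adjusted p = 0.486), and that of Yap1 was -0.17 ± 0.16 (SE, adjusted p = 0.697). Adjusted p-values of genes are from edgeR's quasi-likelihood test with Benjamini-Hochberg adjustment over all genes tested, and a gene is called at an adjusted p under 0.05.

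The first comparison was between KD and control fibroblasts. In the fibroblast compartment 3 of the 7 ligands, Wnt11, Wnt2 and Wnt5a, were higher in the KD libraries and none was called lower. Of 17481 genes tested there, 10.6% were called, 4.42% higher and 6.22% lower. The median log2 fold change of the 7 ligands was 0.36, beside 0.01 over all genes tested. All 7 passed the filter on low counts. Wnt11 rose 2.02-fold, Wnt2 1.55-fold and Wnt5a 1.46-fold.

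Wnt2, a canonical ligand of the lung mesenchyme, was at 14.2 and 16.5 CPM in KD fibroblasts, against 8.70 and 11.2 CPM in control fibroblasts. Both KD libraries lay above both controls, as they did for 28.6% of all genes tested. The log2 fold change was 0.63 ± 0.16 (SE), 1.55-fold, with an adjusted p of 0.0413. The call was lost without KD library 2 (adjusted p = 0.173) and without control library 1 (adjusted p = 0.0654). Wnt2b, its close paralog, was sparse, with 17 and 22 UMIs in KD fibroblasts and 19 and 27 UMIs in control fibroblasts. Its libraries overlapped between the groups, at 0.432 and 0.649 CPM in KD and 0.341 and 0.494 CPM in control, and it did not pass the test (log2 fold change 0.36 ± 0.37 SE, adjusted p = 0.55).

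Wnt5a, the main non-canonical ligand of distal lung mesenchyme, was at 74.0 and 75.8 CPM in KD fibroblasts, against 51.4 and 51.8 CPM in control fibroblasts. The libraries of each group nearly coincided and the groups did not overlap. The log2 fold change was 0.54 ± 0.10 (SE), 1.46-fold, with an adjusted p of 0.0154. The size held with each library left out in turn, but the call was lost without KD library 1 (adjusted p = 0.0644) and without KD library 2 (adjusted p = 0.0889). Wnt5b, the paralog of Wnt5a, was at 7.22 and 6.72 CPM in KD fibroblasts and 5.86 and 6.14 CPM in control fibroblasts. Its groups did not overlap either, but the difference did not pass the test (log2 fold change 0.22 ± 0.13 SE, adjusted p = 0.305).

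Wnt11, a mostly non-canonical ligand known in mouse for branching of the kidney, was at 10.2 and 10.8 CPM in KD fibroblasts, against 4.85 and 5.58 CPM in control fibroblasts. The libraries of each group lay close together and the groups did not overlap. The log2 fold change was 1.02 ± 0.14 (SE), 2.02-fold, with an adjusted p of 0.00491, and it was called with each library left out in turn. By comparison, Wnt4 was at 75.0 and 91.6 CPM in KD fibroblasts and 32.1 and 31.9 CPM in control fibroblasts.

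Wnt9a, known in mouse for the formation of joints, was at 7.53 and 7.23 CPM in KD fibroblasts and 5.84 and 6.40 CPM in control fibroblasts. The groups did not overlap, but the difference did not pass the test (log2 fold change 0.28 ± 0.13 SE, adjusted p = 0.217). Wnt10b, a canonical ligand that favours bone over fat formation, had 16 and 10 UMIs in KD fibroblasts and 32 and 11 UMIs in control fibroblasts. Its libraries overlapped and control library 1 was the high one, so no direction was visible (log2 fold change -0.13 ± 0.53 SE, adjusted p = 0.898).

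**Figure D1:**
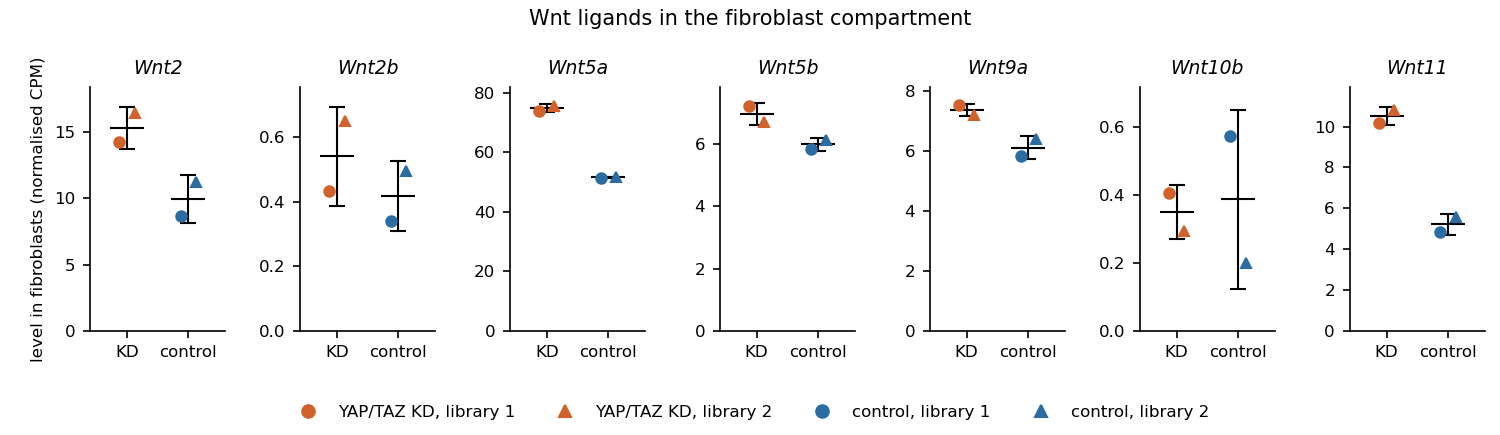
Level of the 7 ligands in the fibroblast compartment, in normalised CPM on a linear axis from 0 with its own scale for each gene. Points are libraries, KD left of control, and bars are mean ± SD (n = 2 each); for Wnt2, Wnt5a, Wnt5b, Wnt9a and Wnt11 both KD points lie above both control points, and for Wnt2b and Wnt10b the groups overlap.

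The share of single fibroblasts with a UMI of a ligand showed the same order for Wnt5a, Wnt11 and Wnt2 when each cell was thinned to 2000 UMIs. Thinning matters because the median fibroblast had 4683 and 5836 UMIs in the KD libraries and 3764 and 4037 UMIs in the control libraries. It left out 3.37% and 0.878% of KD fibroblasts and 7.44% and 5.45% of control fibroblasts, those with fewer UMIs. Wnt5a was detected in 12.9% and 13.5% of thinned KD fibroblasts and 9.97% and 10.0% of thinned control fibroblasts, with exact 95% binomial intervals of 12.2% to 13.7% and 12.5% to 14.4% in KD and 9.42% to 10.54% and 9.46% to 10.6% in control. Wnt11 was detected in 2.12% and 1.58% of thinned KD fibroblasts and 1.08% and 0.995% of thinned control fibroblasts. For Wnt2 the shares were 2.44% and 3.19% in KD and 1.64% and 2.25% in control, so that KD library 1 lay close to control library 2. Without thinning, Wnt2 was detected in 6.20% and 8.59% of KD fibroblasts and 3.59% and 4.39% of control fibroblasts. In AT2 cluster 9, an epithelial cluster with median depths of 4892 and 5466 UMIs in KD and 3807 and 3958.5 UMIs in control among the cells kept, the thinned shares were 0% and 0% in KD and 0% and 0.216% in control for Wnt2. For Wnt5a the shares there were 3.77% and 1.79% in KD and 2.22% and 2.16% in control, under those of fibroblasts in each library. For Wnt11 they were 0.229% and 0% in KD and 0% and 0% in control, where 0 of 223 cells in KD library 2 still allows a share of up to 1.35%, by a limit of 3 cells. With 2 libraries against 2, the exact two-sided permutation test cannot go below p = 0.333, so the shares carry no call. Intervals and limits cover counting error only.

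The fibroblasts were also split by their mitochondrial RNA, a sign of cell quality, which differed between libraries. Mitochondrial RNA made up at most 20% of the UMIs in 17.65% and 57.54% of KD fibroblasts and in 26.28% and 35.45% of control fibroblasts. Cells at or under 20% numbered 1319 and 2948 in KD and 3164 and 4070 in control. Those over 20% numbered 6153 and 2175 in KD and 8877 and 7410 in control. The share of all genes called in each stratum is not given, so a call in 1 alone is no difference between them. Among cells at or under 20%, Wnt2 was at 11.98 and 13.3 CPM in KD and 11.3 and 11.9 CPM in control (log2 fold change 0.15 ± 0.16 SE, adjusted p = 0.634). Among cells over 20% it was at 14.4 and 19.97 CPM in KD and 7.91 and 10.97 CPM in control (log2 fold change 0.86 ± 0.20 SE, adjusted p = 0.0367). The Wnt2 difference was thus seen in the cells with more mitochondrial RNA and was small in the others, and the difference between the strata was not tested. Wnt5a had a log2 fold change of 0.27 ± 0.14 (SE) in cells at or under 20% (adjusted p = 0.281) and of 0.62 ± 0.12 in cells over 20% (adjusted p = 0.0147). Wnt11 was called in both strata, at 10.996 and 10.8 CPM in KD and 5.60 and 7.22 CPM in control at or under 20% (log2 fold change 0.75 ± 0.20 SE, adjusted p = 0.0404). In cells over 20% its log2 fold change was 1.17 ± 0.16 (SE, adjusted p = 0.0036).

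**Figure D2:**
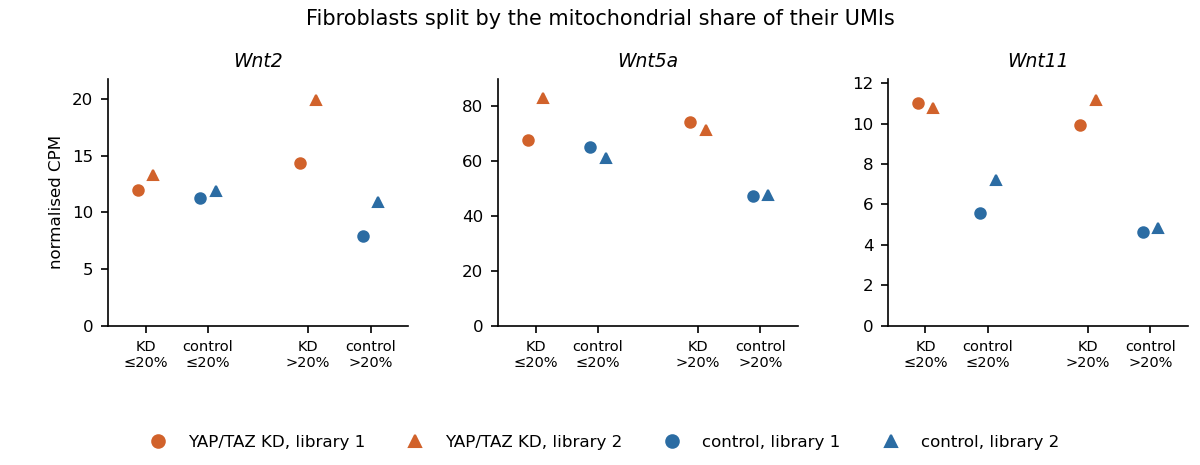
Wnt2, Wnt5a and Wnt11 in fibroblasts split by the mitochondrial share of their UMIs, in normalised CPM on linear axes from 0, 1 point per library, KD left of control within each stratum. In cells at or under 20% the Wnt2 points of KD (11.98 and 13.3 CPM) and control (11.3 and 11.9 CPM) lie close together, while the Wnt11 points stay apart in both strata.

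Markers of other cell types also moved with the group in the fibroblast sums. The 8 AT2 markers summed to 2435 and 1182 CPM in KD fibroblasts and 774 and 860 CPM in control fibroblasts, and 4 of them were called higher. Of the 6 immune markers, 3 were called higher (sums of 42.1 and 30.0 CPM in KD, 13.9 and 14.2 CPM in control), with Cd3e at 0. Of the 4 basal cell markers, all 4 were called lower (0.992 and 1.12 CPM in KD, 18.2 and 15.5 CPM in control), as were all 3 cycling markers (51.2 and 64.9 CPM in KD, 109 and 124 CPM in control). Of the mesothelial list 3 of the 4 genes tested were called lower (42.2 and 40.05 CPM in KD, 95.01 and 87.4 CPM in control), of 5 ciliated markers 3 lower (11.2 and 9.61 CPM in KD, 22.8 and 13.3 CPM in control) and of 6 smooth muscle markers 2 lower, Des and Lmod1 (394 and 601 CPM in KD, 542 and 800.4 CPM in control). Of 4 pericyte markers 2 were called higher and 1 lower (196 and 216 CPM in KD, 134 and 149 CPM in control), and of 4 endothelial markers 1, Kdr, was called higher (7.25 and 7.46 CPM in KD, 4.11 and 3.22 CPM in control). The 6 secretory airway markers were uneven between libraries, at 27.7 and 286 CPM in KD and 1336 and 302 CPM in control, and none was called. Of 6 AT1 markers 1, Hopx, was called higher, and of 5 transitional markers 1, Krt19, lower. Of 6 alveolar fibroblast markers 1 was called higher and 1 lower, and of 6 adventitial ones 2 higher and 1 lower. The 8 fibroblast markers themselves summed to 7220 and 6670 CPM in KD and 7431 and 9676 CPM in control, and 1, Lum, was called lower. In AT2 cluster 9 itself, where the AT2 markers are concentrated, Wnt2 was at 1.71 and 0.611 CPM in KD and 0.929 and 0.952 CPM in control, Wnt11 at 1.33 and 0.611 CPM in KD and 0 and 0.476 CPM in control, and Wnt5a at 16.9 and 8.55 CPM in KD and 12.1 and 10.95 CPM in control. The part of these lists in the ligand differences was not tested.

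The deposited classes showed where each ligand was found. Classes were clustered by the authors on expression that includes these genes, so the levels across them are descriptions. Wnt5a was broadly mesenchymal: control levels ran from 35.6 CPM (Inflammatory Fibroblasts-1, control library 2) up to 107 and 125 CPM in smooth muscle cells (SMC), against 7.04 to 12.1 CPM in AT2 cluster 9 and transitional epithelial cells, leaving aside classes under 50 cells. In the KD libraries Tgfbi+ Fibroblasts, a class of 931 and 404 KD cells with only 5 and 38 control cells, stood high at 120 and 125 CPM. Wnt2 was also mesenchymal but less even. In control libraries it was at 15.02 and 24.1 CPM in Myo1f+ Fibroblasts, 15.8 and 18.95 CPM in Myofib-like cells, 17.95 and 14.9 CPM in SMC and 11.5 and 16.3 CPM in the class named Fibroblasts, 4 classes whose ranges overlap. It was lower in EMT-like cells (6.34 and 5.84 CPM) and Inflammatory Fibroblasts-1 (4.42 and 4.13 CPM) of the controls. In transitional epithelial cells Wnt2 was at 0.970 and 0 CPM in KD and 0.195 and 0.845 CPM in control.

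Wnt10b was found mainly outside the fibroblasts. Transitional epithelial cells, a Krt8-rich state between AT2 and AT1 cells, carried 45.9% and 61.5% of its UMIs in the KD libraries and 43.2% and 47.5% in the control libraries, as 28 and 24 UMIs in KD and 38 and 28 UMIs in control. Its level there was 5.43 and 5.17 CPM in KD and 7.39 and 7.89 CPM in control, while fibroblasts carried 6.26% and 4.78% of that level in KD and 6.90% and 2.14% in control. The pan-epithelial markers stood at a like share in fibroblasts, 5.77% and 3.74% of their epithelial level in KD and 6.29% and 3.91% in control. In AT2 cluster 9 a single Wnt10b UMI was counted over the 4 libraries. Within the fibroblasts its UMIs were uneven: Myofib-like cells held 1 and 0 of them in KD and 17 and 6 in control (0.334 and 0 CPM in KD, 2.49 and 0.868 CPM in control), most of the control ones, 15 and 5, in cluster 15. Inflammatory Fibroblasts-2 and Myo1f+ Fibroblasts had no Wnt10b UMI in any library.

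Wnt11 and Wnt9a were found on both sides of the organoid, as was Wnt5b. The transitional cells held Wnt11 at 191% and 263% of the fibroblast level of the same library in KD and 208% and 187% in control, and Wnt9a at 160% and 199% in KD and 184% and 178% in control. The fibroblast marker list stood at 9.60% and 7.18% of the fibroblast level in those KD cells and 13.1% and 8.25% in those control cells, far under the shares of these 2 ligands. In AT2 cluster 9, Wnt9a was at 0.762 and 1.22 CPM in KD and 0.929 and 1.43 CPM in control. Among fibroblast classes, Wnt11 was high in Myofib-like cells (11.7 and 15.6 CPM in KD, 12.3 and 12.9 CPM in control) and, in KD libraries, in Tgfbi+ Fibroblasts (27.7 and 37.6 CPM). Wnt9a was high in EMT-like cells, at 12.4 and 13.5 CPM in KD and 8.41 and 9.34 CPM in control. Myofib-like cells, at 7.02 and 7.10 CPM in KD and 9.66 and 9.26 CPM in control, were lower than EMT-like cells in KD and overlapped them in control. Wnt5b was spread thinly, at 4.70 to 12.2 CPM in Fibroblasts, EMT-like, Myofib-like and Cycling Fibroblasts of all 4 libraries, and at 17.8 and 21.5 CPM in KD and 27.5 and 9.53 CPM in control in the class named Unknown Mesenchymal, where the controls rest on 6 and 3 UMIs. Wnt2b had at most 9 UMIs in any class and library.

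**Figure D3:**
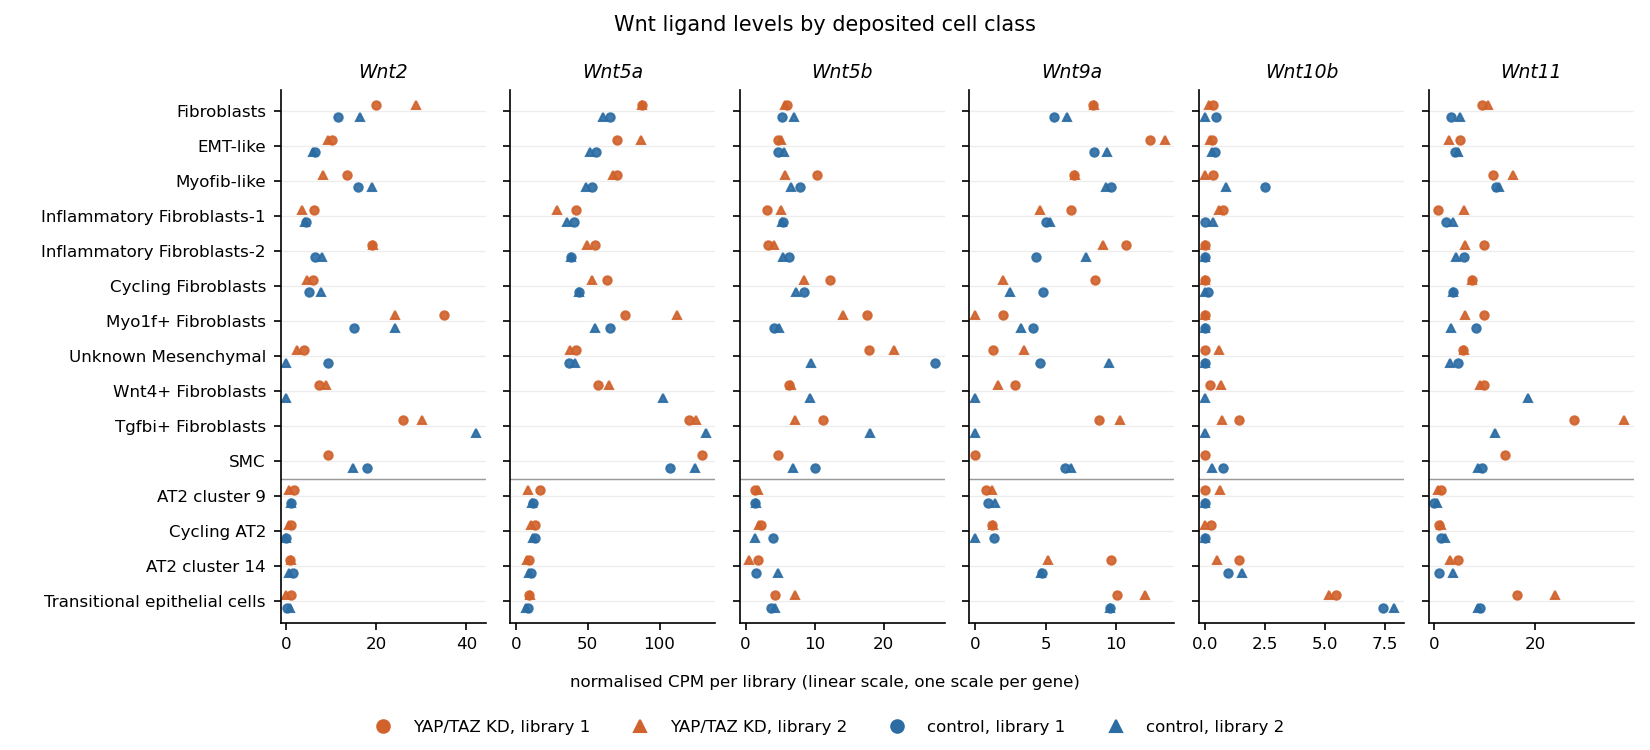
Level of 6 ligands in 15 deposited classes or clusters, in normalised CPM on linear axes with a scale for each gene. Points are libraries with at least 20 cells of the class, KD drawn above control, fibroblast classes above the line and epithelial ones below it. Wnt10b sits in transitional epithelial cells, Wnt2 and Wnt5a in fibroblast classes, and Wnt5b, Wnt9a and Wnt11 in both.

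The makeup of the fibroblasts differed between the groups, and with it where the UMIs lay. Tgfbi+ Fibroblasts made up 8.83% and 6.21% of KD cells and 0.0333% and 0.274% of control cells. They carried 23.8% and 20.8% of the Wnt11 UMIs and 20.8% and 14.8% of the Wnt2 UMIs of the KD libraries. In the controls they carried 0.274% and 0.513% of the Wnt11 UMIs and 0.388% and 1.03% of the Wnt2 UMIs. Myofib-like cells carried 6.04% and 9.04% of the Wnt11 UMIs in KD and 23.01% and 22.8% in control. When every one of the 8 fibroblast classes with 50 or more cells in each library was given the same weight, which leaves out SMC, Tgfbi+ and Wnt4+ Fibroblasts, none of the 3 ligands was called. The log2 fold change was then 0.49 ± 0.19 (SE) for Wnt11 (limma adjusted p = 0.192), 0.42 ± 0.17 for Wnt2 (limma adjusted p = 0.202) and 0.45 ± 0.11 for Wnt5a (limma adjusted p = 0.0635). On that scale the size of the Wnt11 difference moved most and that of Wnt5a least. This limma fit also called fewer of all genes than the main fit, as given below. The part of class makeup in the lost calls was not tested.

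**Figure D4:**
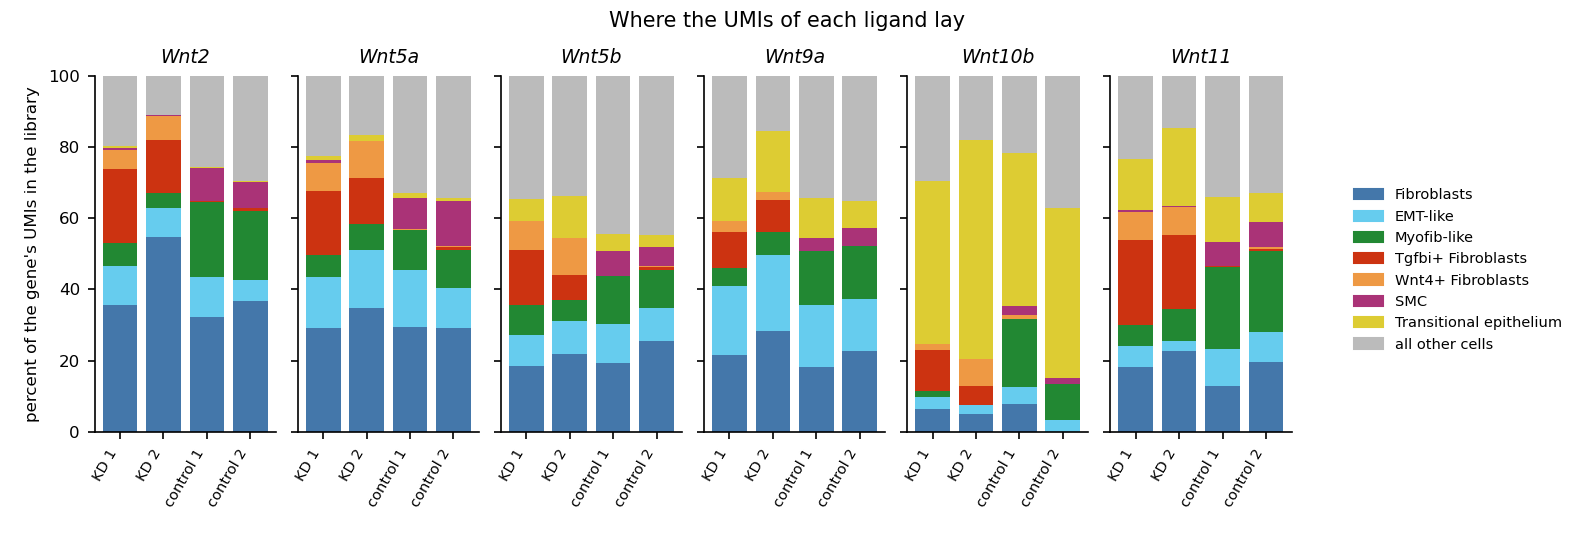
Share of each ligand's UMIs, in percent of all its UMIs in the library, by class; bars are libraries, KD left of control, and gray is all other cells. Tgfbi+ Fibroblasts hold 23.8% and 20.8% of Wnt11 UMIs in KD and 0.274% and 0.513% in control, and transitional epithelial cells hold 43.2% to 61.5% of Wnt10b UMIs in each library.

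The next question was whether the ligands differed within classes. Over 12 classes tested 1 by 1, with 43 tests of a ligand in a class, there were 5 calls, all higher in KD. In the 9 classes with no ligand called, 0.304% to 7.33% of genes were called in either direction. In the class named Fibroblasts 3 of 5 ligands tested were called higher, where 3.81% of genes were called higher. Wnt11 was at 9.40 and 10.6 CPM there in KD and 3.25 and 5.07 CPM in control (log2 fold change 1.29 ± 0.23 SE, adjusted p = 0.00664). Wnt2 was at 19.9 and 28.8 CPM in KD and 11.5 and 16.3 CPM in control (log2 fold change 0.84 ± 0.21 SE, adjusted p = 0.0335). Wnt5a was at 87.8 and 87.8 CPM in KD and 65.5 and 60.4 CPM in control (log2 fold change 0.52 ± 0.12 SE, adjusted p = 0.0232). Each of the 3 ligands had both KD libraries above both controls in this class. The share of all its genes for which this held was not computed, and the order rests on the same values as the calls. Wnt11 was called with each library left out in turn. The Wnt2 call was lost without KD library 2 (log2 fold change 0.53, adjusted p = 0.115) and without control library 1 (adjusted p = 0.0515), and the Wnt5a call without KD library 2 (adjusted p = 0.0886) and without control library 2 (adjusted p = 0.0504).

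This class is not made of the same clusters in both groups. Cluster 5 held 1393 and 1149 of its KD cells and 7 and 76 of its control cells, while cluster 0 held 66 and 23 of its KD cells and 2412 and 2035 of its control cells. In plain CPM of the cluster, with no further normalisation, Wnt2 was at 23.99 and 35.5 CPM in KD cells of cluster 5. The 76 control cells of that cluster, with 7 Wnt2 UMIs, were at 23.8 CPM, close to the lower KD value. In cluster 0 the controls were at 14.3 and 22.9 CPM. Wnt11 was at 9.04 and 12.3 CPM in KD cells of cluster 5 and at 3.41 and 5.79 CPM in control cells of cluster 0. The 76 control cells of cluster 5 were at 3.41 CPM, on 1 Wnt11 UMI. The 66 and 23 KD cells of cluster 0 were at 11.4 and 11.2 CPM of Wnt11, on 4 and 2 UMIs. Their Wnt2 was at 14.3 and 5.62 CPM, on 5 and 1 UMIs. The class difference and the change of cluster cannot be told apart for these genes. Clusters 8 and 11 of the class had more than 50 cells in every library. In cluster 8, with 631 and 347 KD cells and 563 and 680 control cells, Wnt2 overlapped between the groups (6.17 and 3.95 CPM in KD, 1.46 and 5.63 CPM in control; adjusted p = 0.698), as did Wnt11, too sparse to test (7.20 and 2.97 CPM in KD, 2.44 and 4.02 CPM in control). In cluster 11 both were too sparse to test: Wnt2 was at 0 and 1.83 CPM in KD and 3.68 and 2.24 CPM in control, and Wnt11 at 8.38 and 1.83 CPM in KD and 1.58 and 1.92 CPM in control. At 0 to 21 UMIs a library, these clusters were too sparse to show whether they shared the higher Wnt2 and Wnt11 of the class. For Wnt2 in cluster 8 the log2 fold change was 0.48 ± 0.51 (SE), a range that holds both 0 and the class value. Mean Wnt11 was higher in KD in clusters 8 (5.08 against 3.23 CPM) and 11 (5.10 against 1.75 CPM), with overlapping libraries. In cluster 8 Wnt5a was at 101 and 97.9 CPM in KD and 68.2 and 70.8 CPM in control, a log2 fold change of 0.52, as in the whole class, with an adjusted p of 0.064, and in cluster 11 it was at 58.7 and 67.6 CPM in KD and 37.8 and 37.1 CPM in control (adjusted p = 0.188).

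In EMT-like cells Wnt5a was the 1 of 5 ligands tested that was called higher, where 3.02% of genes were called higher. It was at 70.4 and 87.4 CPM in KD and 55.5 and 51.8 CPM in control (log2 fold change 0.59 ± 0.15 SE, adjusted p = 0.0323). The call was lost without KD library 2 (adjusted p = 0.386) and by DESeq2 (adjusted p = 0.069). In Inflammatory Fibroblasts-2 Wnt2 was the 1 of 5 called higher, where 1.4% of genes were, at 18.98 and 19.2 CPM in KD and 6.30 and 8.01 CPM in control (log2 fold change 1.44 ± 0.33 SE, adjusted p = 0.0131). The KD values there rest on 23 and 19 UMIs. The size held, but the call was lost without KD library 1 (adjusted p = 0.0754), without control library 1 (adjusted p = 0.0947) and by DESeq2 (adjusted p = 0.245). Within single clusters, chosen after the class results were seen, EMT-like cluster 1 had Wnt2 at 10.2 and 10.7 CPM in KD and 5.74 and 5.67 CPM in control (log2 fold change 0.87 ± 0.24 SE, adjusted p = 0.0456). Wnt5a in that cluster was at 65.6 and 87.1 CPM in KD and 51.5 and 48.1 CPM in control (log2 fold change 0.61 ± 0.16 SE, adjusted p = 0.037), where 2.25% of genes were called higher. In EMT-like cluster 25, Wnt2 was at 5.02 and 0.807 CPM in KD and 3.33 and 3.41 CPM in control, on 1 to 8 UMIs a library, and Wnt5a was not called (adjusted p = 0.366). In Myofib-like cluster 4, Wnt5a was at 48.7 and 59.5 CPM in KD and 36.1 and 33.0 CPM in control (log2 fold change 0.66 ± 0.16 SE, adjusted p = 0.0461), where 1.37% of genes were called higher.

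Wnt2 differed unequally among the fibroblast classes. In Myofib-like cells it was at 13.4 and 8.12 CPM in KD and 15.8 and 18.95 CPM in control, with both KD libraries below both controls (log2 fold change -0.68 ± 0.25 SE), which did not pass the test within the class (adjusted p = 0.116). The test of whether the Wnt2 difference was unequal among the 8 fibroblast classes did pass (edgeR F test with the library as a block, adjusted p = 0.00117), and Wnt2 was the only 1 of the 5 ligands tested to do so, where 7.96% of genes were called. The call was lost without KD library 2 (adjusted p = 0.0819). Myofib-like cells against the mean of the other classes gave a log2 difference of -1.13 ± 0.31 (SE, adjusted p = 0.0275), where 1.69% of genes were called lower. The cluster makeup of this class differed too: cluster 15 held 99 and 39 of its KD cells and 703 and 594 of its control cells, beside 519 and 439 KD cells and 858 and 918 control cells of cluster 4. In cluster 4 alone Wnt2 was at 11.98 and 8.50 CPM in KD and 14.9 and 16.6 CPM in control (log2 fold change -0.62 ± 0.26 SE, adjusted p = 0.238). In cluster 15 its plain CPM was 18.01 and 3.85 in KD, on 10 and 1 UMIs, and 16.5 and 22.0 in control, so that the groups overlapped. The others had an adjusted p among classes of 0.0795 for Wnt11, 0.298 for Wnt9a, 0.301 for Wnt5a and 0.431 for Wnt5b. For Wnt11 the class values ran from 1.29 in Fibroblasts and 1.03 ± 0.38 (SE) in Cycling Fibroblasts to 0.13 ± 0.23 in Myofib-like and -0.08 ± 0.33 in EMT-like cells, all on the log2 scale. Within the Myofib-like clusters both KD libraries lay above both controls, unlike in the class as a whole. Wnt11 was at 7.98 and 13.7 CPM in KD and 6.57 and 6.33 CPM in control in cluster 4 (log2 fold change 0.76 ± 0.33 SE, adjusted p = 0.255), and at 27.0 and 34.7 plain CPM in KD, on 15 and 9 UMIs, and 17.7 and 21.1 plain CPM in control in cluster 15. For Wnt5a, 6 of the 8 classes had log2 fold changes between 0.44 and 0.67, and Inflammatory Fibroblasts-1 and Unknown Mesenchymal were at -0.09 and 0.01.

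**Figure D5:**
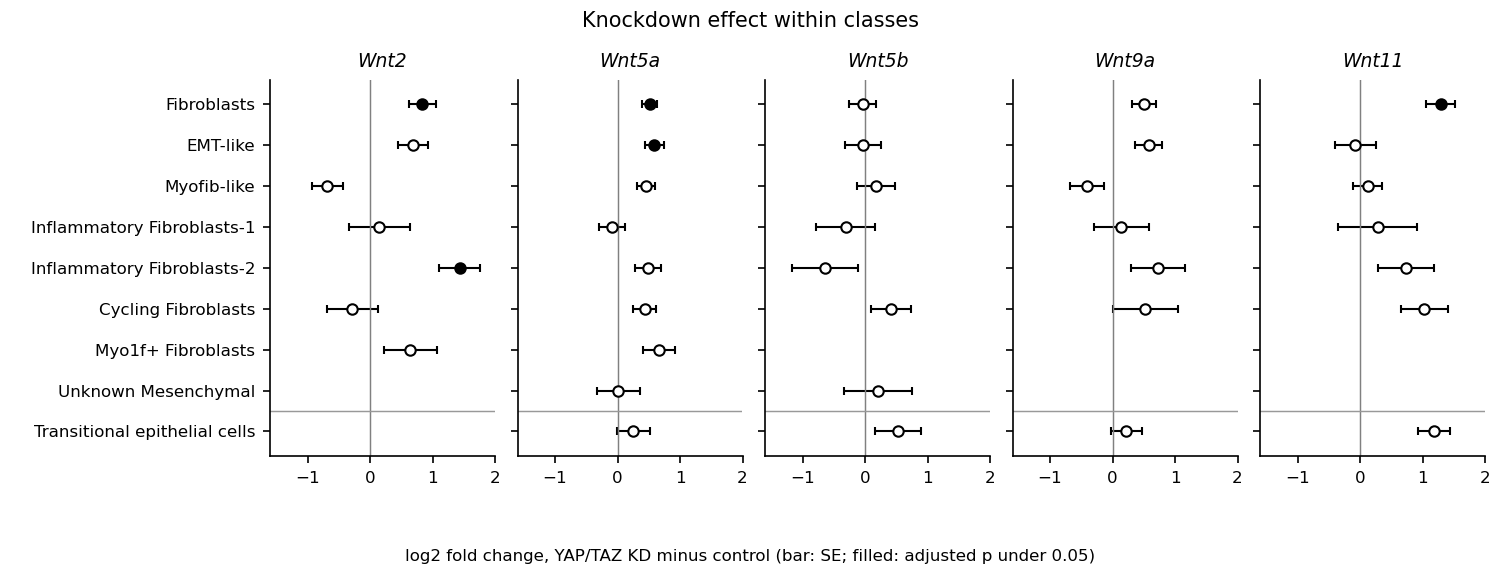
Log2 fold change, KD minus control, of 5 ligands within each class where the gene passed the filter on low counts; points are edgeR estimates, bars are SE, and filled points have an adjusted p under 0.05. Wnt2 lies right of 0 in Fibroblasts (0.84) and Inflammatory Fibroblasts-2 (1.44) and left of 0 in Myofib-like cells (-0.68), where it did not pass the test.

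The epithelium was grown with these fibroblasts but was not targeted, and the third question was whether its own ligands differed. None of the 5 ligands that passed the filter was called in the epithelial compartment, where 1.44% of 13952 genes were called. At an unadjusted p under 0.05 there were 2 of the 5, Wnt11 and Wnt10b, and 1586 of all genes. The median log2 fold change was 0.14 over the 5 ligands and 0.02 over all genes. Wnt2, with 21 and 5 UMIs in KD and 7 and 6 UMIs in control, and Wnt2b, with 4 and 1 UMIs in KD and 6 and 3 UMIs in control, were too sparse to test.

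Wnt11 was at 6.64 and 12.8 CPM in KD epithelium, against 4.60 and 5.04 CPM in control epithelium. Both KD libraries lay above both controls, as for 22% of genes, but KD library 1 lay closer to the controls than to KD library 2 (log2 fold change 0.98 ± 0.30 SE, unadjusted p = 0.006, adjusted p = 0.183). In transitional cells alone it was at 16.3 and 23.9 CPM in KD and 8.95 and 8.73 CPM in control (log2 fold change 1.19 ± 0.26 SE, unadjusted p = 0.000469, adjusted p = 0.0952). The estimate there was thus near that in fibroblasts, and it missed the threshold in a class where 0.304% of genes were called. Some fits with a library left out passed, but each rests on 1 library in a group, and no call is drawn from them. The share of transitional cells with a Wnt11 UMI after thinning to 2000 UMIs was 4.01% and 4.97% in KD and 2.15% and 1.82% in control.

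Wnt10b was at 2.03 and 2.75 CPM in KD epithelium and 3.96 and 3.63 CPM in control epithelium, with both KD libraries below both controls (log2 fold change -0.70 ± 0.32 SE, unadjusted p = 0.0468, adjusted p = 0.43). Within transitional cells the log2 fold change was -0.51 ± 0.29 (SE, adjusted p = 0.681). Wnt9a, at 5.41 and 7.40 CPM in KD and 5.98 and 5.51 CPM in control, overlapped between the groups (log2 fold change 0.14 ± 0.25 SE, adjusted p = 0.859). Wnt5a was at 13.5 and 11.5 CPM in KD epithelium and 10.8 and 9.84 CPM in control epithelium (log2 fold change 0.29 ± 0.20 SE, adjusted p = 0.60). These Wnt5a levels were 18.2% and 15.3% of the fibroblast level in KD and 20.9% and 19.04% in control, beside 9.03% and 6.50% in KD and 13.0% and 8.61% in control for the fibroblast markers. The Wnt2 level in epithelium was 8.998% and 3.23% of the fibroblast level in KD and 7.38% and 6.26% in control, at or under the markers in every library.

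The fibroblast and epithelial differences were then set against each other in 1 model. No ligand differed between the compartments, where 3.55% of 17188 genes were called. For Wnt11 the difference between the log2 fold changes was 0.05 ± 0.31 (SE, adjusted p = 0.97), and for Wnt5a it was 0.21 ± 0.15 (SE, adjusted p = 0.554). For Wnt2 it was 0.02 ± 0.65 (SE, adjusted p = 0.998). A p over the threshold does not show that the compartments acted alike.

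The genes that make, receive and read Wnt signals were described from 3 lists, to be read beside the 10.6% of all fibroblast genes called (4.42% higher, 6.22% lower) and their median log2 fold change of 0.01. Of 12 genes of Wnt processing and secretion, 1 was called higher in fibroblasts and none lower, with a median log2 fold change of 0.05. This was Notum, a secreted enzyme that removes the lipid from Wnt proteins, at 3.71 and 3.42 CPM in KD and 1.83 and 1.63 CPM in control (log2 fold change 1.05 ± 0.18 SE, adjusted p = 0.0115). Of 16 receptor genes, 14 were tested, none was called higher and 2 were called lower, with a median of 0.05. The shares called in these 2 lists are near that of all genes. Ror1, a receptor of Wnt5a, was at 212 and 182 CPM in KD and 314 and 294 CPM in control (log2 fold change -0.62 ± 0.14 SE, adjusted p = 0.0294). The Frizzled receptor Fzd6 was at 3.28 and 2.89 CPM in KD and 4.56 and 5.58 CPM in control (log2 fold change -0.71 ± 0.17 SE, adjusted p = 0.0404).

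Of 18 β-catenin target genes, 5 were called higher and 3 lower in fibroblasts, with a median log2 fold change of 0.28. Those higher included 3 inhibitors of the pathway, Wif1 (7.86 and 5.40 CPM in KD, 1.89 and 2.50 CPM in control), Apcdd1 (11.1 and 8.73 CPM in KD, 6.49 and 6.56 CPM in control) and Notum, which is on both lists. Dkk2, a secreted modulator of LRP receptors, was at 53.7 and 55.4 CPM in KD and 24.7 and 27.1 CPM in control. Sp5, a transcription factor, was at 1.48 and 1.39 CPM in KD and 0.557 and 0.658 CPM in control. Those lower were Nkd2, which restrains signalling through Dishevelled (7.45 and 6.31 CPM in KD, 19.8 and 22.1 CPM in control), the R-spondin receptor Lgr6 (1.53 and 1.39 CPM in KD, 4.19 and 3.62 CPM in control) and the cyclin Ccnd1 (20.8 and 20.1 CPM in KD, 31.1 and 31.4 CPM in control). The list therefore moved in both directions, and the cycling markers that fell with Ccnd1 are given above. In the epithelium no gene of the 3 lists was called, of 11, 14 and 15 tested, where 1.44% of all genes were called, so that a count of 0 is near the share over all genes.

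Likeness between genes was measured as Pearson's r of the mean control log2(CPM + 1) across 12 classes, among 13323 genes at 5 CPM or more in a class, as a description of classes that share libraries and depth. The genes most like Wnt5a were Pcsk5 (r = 0.990), Fbn1 (0.989) and Ism1 (0.986). Those most like Wnt2 were St8sia2 (0.967), Mettl24 (0.952) and Hspa12b (0.951). Those most like Wnt11 were Sema4c (0.954), Palld (0.938) and Stx1a (0.925). For Wnt10b they were Ccn2 (0.960), Vps37a (0.948) and Nupr1 (0.947), for Wnt9a Dlgap4 (0.946), Irak4 (0.931) and Sfxn3 (0.925), and for Wnt5b Psmd9 (0.963), Fhod3 (0.958) and Gm49768 (0.956). Wnt2b did not reach the level limit. Among the ligands themselves, Wnt2 and Wnt5a were the most alike (r = 0.897), then Wnt9a and Wnt11 (0.784), while Wnt5a and Wnt10b ran opposite (-0.483).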

How the data were processed

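Libraries were prepared with a 10x Genomics Multiome kit, per the labels' protocols, which also name an RNA extraction column. The authors deposited counts of UMIs as whole numbers, without normalisation (45936 cells, 32285 genes), and their sums equalled the deposited UMIs of every cell. The mitochondrial share of each cell was deposited as a percent. Cells had at most 35% mitochondrial UMIs and at least 533 UMIs and 402 genes. The builds GRCm38 and mm10 come from the submitters' processing notes; aligner and intronic reads: not given in the sources used here. No use was made of 53 other columns of cell values. No doublet caller was run; clusters 19 and 23 and 143 mesothelial cells entered no compartment.

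Counts were summed per library and deposited class (15 classes, 27 clusters) and tested with edgeR 4.0.16 in R 4.3.3 (quasi-likelihood, TMM, default filter on low counts). A class was tested with at least 50 cells in each library. Alternatives were DESeq2 1.42.0, limma 3.58.1, other filters and sets of cells, and each library left out. Equal-weight levels used log2(CPM + 0.5). The fits were tested on simulated data. Of the gene IDs, 32235 matched GENCODE M21. The 7 ligands, Yap1, Wwtr1, Wnt4, the other Wnt genes and every called gene of the pathway lists were named by rule; single clusters were chosen after the class results were seen. The ligands and lists were chosen with earlier results of these data known.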

Additional observations from a re-analysis of the deposited data

Results flagged for a closer look

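The Wnt2 difference was unequal among the fibroblast classes by the test of class by group terms, with an adjusted p of 0.00117 (edgeR F test). The log2 fold change, KD minus control, was 1.44 in Inflammatory Fibroblasts-2, 0.84 in Fibroblasts, 0.69 in EMT-like cells and -0.68 in Myofib-like cells. Myofib-like cells differed from the mean of the other classes by -1.13 on the log2 scale (adjusted p = 0.0275). Without KD library 2 the adjusted p among classes was 0.0819. Over the alternatives that left out 1 other library it was 0.0297 at most. In the Myofib-like class alone the main fit of Wnt2 did not pass the test. The log2 fold change was -1.06 without KD library 1 and -0.82 without control library 1, fits that leave 1 library in a group. Each of these left out the library that lay nearest the other group, and each gave a larger fall than the main fit. With replicate numbers as a block, which have no stated meaning, Wnt2 was called lower (-0.68, edgeR adjusted p = 0.0308). The number of all genes of the class called with that block is not given here. The fits without KD library 2 and without control library 2, and the other alternatives for this class, are not listed either, so the values given do not show how steady the fall was.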

How the results depend on the processing

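Of 525 recomputed values, 399 kept their direction and side of the threshold or moved little, 24 turned round, 19 lost and 10 gained a call and 73 moved; the cause was not tested. Over 17 alternatives in fibroblasts, Wnt11 was called in 16 (log2 fold change 0.49 to 1.18), Wnt2 in 13 (0.15 to 0.86) and Wnt5a in 13 (0.27 to 0.64). Wnt5b was called in 1, the replicate block with a gene span offset (0.37, adjusted p = 0.0452). The 1860 fibroblast genes called became 998 to 3666 with each library left out, 565 with equal class weights, 5820 with the replicate block and 4786 with that block and a gene span offset. The 3 ligands called became 1 to 3 with each library left out, 1 in cells with at most 20% mitochondrial UMIs and 0 with equal class weights. The number of all genes called in cells with at most 20% mitochondrial UMIs is not given here. The replicate numbers have no stated meaning and only 2 pairs exist, with correlations of 0.297 in fibroblasts and 0.149 in epithelium.

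The 201 epithelial genes called became 136 to 684 with each library left out, 329 with the replicate block, 89 with that block and the span offset, 528 with no filter, 780 with the mixed clusters and 29 in cells over 20%. No epithelial ligand was called, but 0 to 1 were with each library left out and 1 with no filter. The 610 genes that differed between compartments became 250 to 975 with each library left out, 1303 with no filter and 277 by DESeq2. Among fibroblast classes the 1 ligand called became 0 to 2, and the 1185 genes 424 to 1338, with each library left out. The 5 calls within classes became 2 to 6 with each library left out, 3 by DESeq2 and 11 with the replicate block. The numbers of all class genes called under those fits are not given here. The replicate block also raised the number of all genes called in the fibroblast compartment, as given above. Whether the ligand calls within classes changed more than those of other genes was therefore not tested.

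Directions that turned were small or sparse. Fibroblast Wnt10b (-0.13) was 0.054 by limma voom and -0.69 to 0.81 with each library left out. In epithelium Wnt9a (0.14) was -0.0023 in cells over 20% and -0.10 to 0.37 with each library left out, and Wnt5a (0.29) was -0.071 with the mixed clusters. Epithelial Wnt5b (-0.06) was 0.10 with the span offset, 0.094 with that and the replicate block, 0.0072 in cells over 20% and -0.42 to 0.28 with each library left out. For fibroblasts minus epithelium, Wnt9a (0.13) and Wnt11 (0.05) were -0.14 and -0.34 in cells at or under 20%, Wnt2 (0.02) was -0.0074 with no filter, and the ranges with each library left out were -0.055 to 0.39 for Wnt9a, -0.29 to 0.50 for Wnt11, -0.41 to 1.14 for Wnt2 and -0.049 to 0.67 for Wnt5b. The share of fibroblasts with a UMI, KD minus control in points, was -0.027 for Wnt2b thinned to 1000 UMIs (0.030 at 2000), 1.04 unthinned and 0.067 at 1000 for Wnt9a (-0.028 at 2000) and 0.028 unthinned for Wnt10b (-0.012 at 2000). Depth limits Wnt2b and Wnt10b most. With a library left out, the lone library of its group was assumed to vary like the other group; single clusters and single classes against the others were not run that way.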

Other observations

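Other Wnt genes of the matrix were at low levels in fibroblasts and none was called there, apart from Wnt4. Among those tested and not called, log2 fold changes there ran from -0.64 (Wnt16) to 0.92 (Wnt7a), in both directions. In the epithelium Wnt7a, known in lung epithelium, was at 30.5 and 39.2 CPM in KD and 34.1 and 36.2 CPM in control, and Wnt7b, an epithelial ligand of the developing mouse lung, at 20.5 and 29.9 CPM in KD and 25.1 and 27.8 CPM in control. Wnt10a was at 6.39 and 11.9 CPM in KD epithelium and 7.36 and 9.49 CPM in control epithelium. None of these 3 was called (edgeR adjusted p of 0.978, 0.897 and 0.91), and their libraries overlapped between the groups.

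Among fibroblasts thinned to 2000 UMIs, cells with a Wnt2 UMI also held a Wnt5a UMI in 15.3% and 16.05% of cases in KD (176 and 162 cells) and 12.02% and 12.7% in control (183 and 244 cells). Fibroblasts without a Wnt2 UMI held one of Wnt5a in 12.9% and 13.4% of cases in KD and 9.93% and 9.95% in control, within the exact 95% intervals of the cells with Wnt2 in each library. For Wnt4 the shares were 17.6% and 28.4% in KD and 10.4% and 9.43% in control in cells with a Wnt2 UMI. In cells without a Wnt2 UMI they were 11.9% and 14.2% in KD and 5.09% and 5.30% in control, below the exact 95% intervals of the cells with Wnt2 in each library (12.3% to 24.1% and 21.6% to 36.001% in KD, 6.37% to 15.7% and 6.07% to 13.8% in control). The classes were not separated here, and no test was made.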
